A study of Homo sapiens with 24 samples.

Results

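Expression profiles of K-ras dependent and K-ras independent non-small cell lung cancer (NSCLC) cells were compared in cells that had received only a control shRNA. The 12 arrays titled scrambled were used, out of 24 in the series. H2009 and H441 form the K-ras dependent class, A549 and H460 the K-ras independent one, a division that the study's design gives and the sample labels do not. Each line was represented by 3 arrays of total RNA from cells stably transduced with a lentiviral scrambled, non-targeting shRNA (δscr), cultured in RPMI-1640 with fetal bovine serum and kept in puromycin. The other 12 arrays come from the same lines with an shRNA against PKCδ and served as a second set of cultures. All 4 lines carry mutant K-ras and each derives from the tumour of 1 patient, so a class is 2 lines and not a sample of tumours.

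Cells with mutant K-ras differ in whether they still need the K-ras protein to survive. When GTP is bound, K-ras activates the RAF, MEK and ERK kinases, the PI3K pathway and the RAL exchange factors. Dependence on K-ras has been tied in earlier work to an epithelial state, and cells that have lost E-cadherin and its partners tend to tolerate loss of K-ras. The 4 lines differ in other genes as well. A549 and H460 are known to carry mutant KEAP1, the inhibitor of the transcription factor NRF2, and mutant STK11, the kinase LKB1. With these lines, those differences cannot be told apart from K-ras dependence.

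The values were log2 signals computed by the authors with RMA on Affymetrix Human Gene 1.0 ST arrays, which read exons along the whole transcript, and 18417 genes were tested. The class difference was the mean of H2009 and H441 minus the mean of A549 and H460. A gene counted as called when its adjusted p was under 0.05 (limma with Benjamini-Hochberg adjustment over all genes) and its difference at least 0.32 on the log2 scale, the fold that the study required. A gene was termed separated when, in addition, each of the 4 comparisons of a dependent with an independent line was called in the same direction. Its gap was the lowest line mean of the higher class minus the highest line mean of the lower class. The array values have no measured background. Olfactory receptor genes, which epithelial cells rarely express, served as a scale for low values, and 95 percent of their line means lay at or under 4.09.

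Replicate arrays of a line correlated across genes at 0.9918 or more. H441 arrays varied most, with a residual variance 1.7 times the median over the remaining lines. All 4 lines had high values of the simple epithelial keratins KRT7, KRT8 and KRT18, with line means between 11.07 and 12.48. Several markers of lung lineage were low, but not all. FOXA1, an endoderm transcription factor of the same list, had line means of 7.19 to 8.91. Of the 26 lung lineage genes measured, 6 had all line means at or under the olfactory receptor scale. NKX2-1, the lineage transcription factor of lung epithelium, was at 5.55 in H2009 and 4.21 in H441 against 3.88 in A549 and 3.61 in H460, and the surfactant gene SFTPB was at 3.80, 4.01, 4.22 and 3.87 in the same order. H441 is known as a line that makes surfactant proteins and NKX2-1, and both NKX2-1 and SFTPB lay near the olfactory receptor scale in the arrays labelled H441. The study states that its lines were authenticated by DNA profiling, and whether these arrays hold the line as labelled was not tested here, which bears on every class value. SFTPC, another surfactant gene, was at 4.79 to 5.39 in the 4 lines, and NAPSA, an aspartic protease of type II cells, was at 5.09 in H441 and 3.97 to 4.19 elsewhere. Of 26 lung lineage genes 4 were called higher and 4 lower in the dependent lines (15.1% and 18.7% of all genes were). Across genes, the line means of H441 correlated most closely with those of H460 (r = 0.966), a line of the other class, and less with those of H2009 (r = 0.9382). Counts without the H441 arrays are therefore given for the separated genes as a whole. They are also given for the epithelial, interferon-stimulated, NRF2 and CREB and CRTC lists, and not for the other lists. Of 18 immune cell markers 3 were called, and of 18 fibroblast and endothelial markers 2 were called, where 33.8% of all genes were. None was separated, where 2.09% of all genes were separated and higher and 3.26% separated and lower. In 8 of the immune and 9 of the fibroblast and endothelial markers all line means lay at or under the olfactory receptor scale.

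The genes with the widest gap between the classes had diverse functions. TXNIP, which binds thioredoxin and restrains glucose uptake, and KRT19, a keratin of simple epithelia, had the widest gaps among genes higher in the K-ras dependent lines. MPV17L, a membrane protein of mitochondria and peroxisomes, GABRA5, a subunit of the GABA-A receptor, and ID2, an inhibitor of helix-loop-helix transcription factors, had the widest gaps in the other direction. In total 384 genes were separated and higher in H2009 and H441 (2.09% of genes tested) and 601 were separated and lower (3.26%).

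TXNIP was at 10.26, 10.35 and 10.27 in the 3 H2009 arrays and 10.68, 10.57 and 10.27 in H441, against 5.55, 5.22 and 5.45 in A549 and 8.15, 7.95 and 8.02 in H460. The dependent lines were alike, and A549 lay far under H460. By limma the class difference was 3.67 (log2; standard error 0.081) with an adjusted p of 1.03e-12. KRT19 was at 10.82, 10.60 and 10.80 in H2009 and 8.79, 8.93 and 8.87 in H441, against 4.88, 5.33 and 5.51 in A549 and 6.68, 6.70 and 6.73 in H460. Each line had its own level of KRT19, and the 6 arrays of the dependent lines were all above the 6 of the independent lines (difference 3.83, standard error 0.092). FAM3C, which encodes a secreted cytokine-like protein, had nearly the same level within each class. Its values were 9.30, 9.38 and 9.24 in H2009 and 9.30, 9.26 and 9.18 in H441, against 7.92, 7.90 and 8.0 in A549 and 7.92, 7.90 and 7.89 in H460, a class difference of 1.36 (standard error 0.052, adjusted p = 1.51e-10 from limma).

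IL6, the cytokine interleukin-6, was at 5.75, 5.86 and 5.50 in H2009 and 7.51, 7.04 and 6.62 in H441, against 4.46, 4.11 and 4.02 in A549 and 4.38, 4.29 and 4.28 in H460. The independent lines were thus close to the olfactory receptor scale, and H441 had the highest values and the widest spread. The remaining genes among the 12 with the widest gap, with class differences of 1.60 to 2.55, were TMEM45B, the cyclin-dependent kinase CDK14, ANKRD22, the anthrax toxin and collagen VI receptor ANTXR2, the growth factor PDGFC, the secreted pattern recognition protein PTX3, the cholesterol exporter ABCA1, and EMP1, an epithelial membrane protein. PDGFC differed little within the classes, with line means of 6.27 in H2009 and 6.21 in H441 against 4.77 in A549 and 4.47 in H460. PTX3 was at 7.40 in H2009 and 7.27 in H441, but at 3.59 in A549 and 5.98 in H460.

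MPV17L was at 4.81, 5.07 and 5.08 in H2009 and 3.79, 5.14 and 4.44 in H441, against 7.66, 7.40 and 7.38 in A549 and 7.16, 7.04 and 7.05 in H460. The spread in H441 (SD 0.68, n = 3) was the widest of the 4 lines, and no array of H2009 or H441 reached those of A549 or H460. The class difference was -2.56 (standard error 0.166, adjusted p = 2.19e-08 from limma). ID2 was at 7.10, 6.72 and 6.88 in H2009 and 6.58, 6.58 and 6.47 in H441, against 9.10, 9.44 and 9.66 in A549 and 8.79, 8.77 and 8.81 in H460. ID2 was 5.19 times lower in the dependent lines on average. GABRA5 was at or near the olfactory receptor scale in H2009 (mean 4.17) and H441 (4.03), at 6.09 in H460 and at 8.52 in A549. MRM1, a methyltransferase of mitochondrial ribosomal RNA, had means of 6.49 in H2009 and 6.35 in H441 against 8.17 in A549 and 8.13 in H460. EDA2R, a receptor of the TNF receptor family, was at 5.41, 5.26 and 5.26 in H2009 and 6.02, 6.04 and 5.81 in H441, against 7.93, 8.02 and 7.88 in A549 and 7.50, 7.56 and 7.59 in H460, with no overlap between the classes (difference -2.12, standard error 0.060). The other genes in this group of 12 were SLC47A1, an exporter of organic cations, RFLNB, a filamin-binding protein, the small nucleolar RNA SNORA38B, TMEM47, the spliceosomal RNA RNU5A-1, the adaptor FYB1 and the protocadherin PCDH9, with class differences from -1.38 to -2.18.

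**Figure D1:**
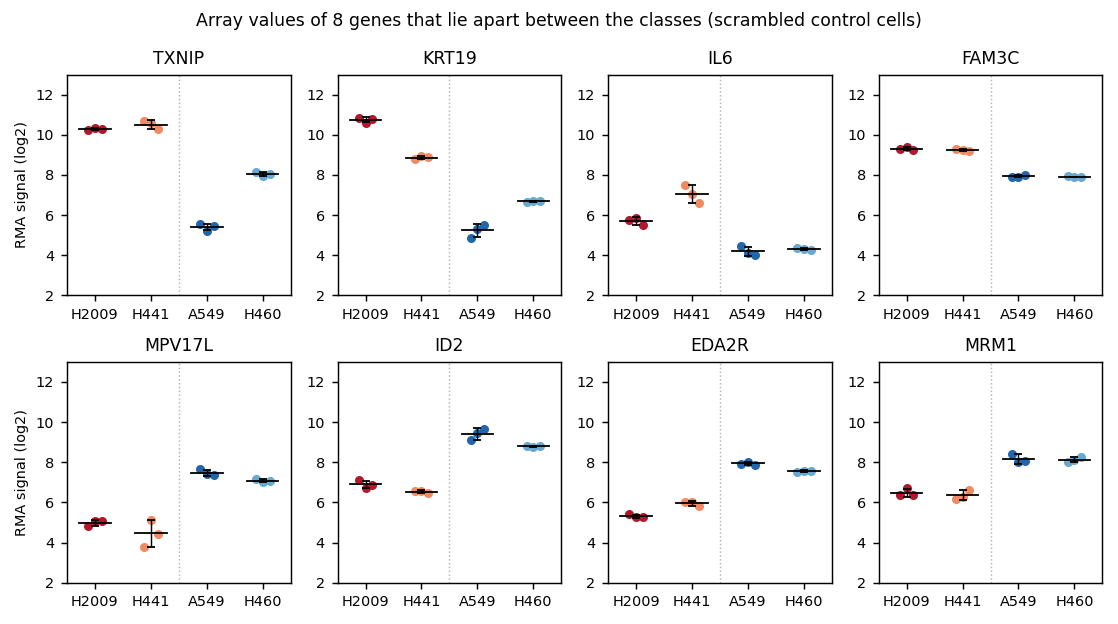
RMA signal (log2, vertical axis) of 8 genes in the 12 δscr arrays, by cell line. Points are arrays, horizontal bars the line means and error bars the SD (n = 3); the dotted line divides the K-ras dependent lines (left) from the independent ones (right). In each of the 8 genes all arrays of one class lie above all arrays of the other, and in TXNIP the 2 independent lines lie at 5.41 and 8.04.

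Genes called by class often did not divide the classes line by line. The class contrast called 2786 genes higher in H2009 and H441 (15.1%) and 3439 lower (18.7%). In 3249 of these 6225 genes (52.2%) both line means of one class lay above both of the other, in 2976 (47.8%) the line means of the classes overlapped, and 985 (15.8%) were separated. The share of all genes tested with line means apart is not given here, so 52.2% describes the called genes only. In 4784 called genes that were not separated (76.9% of all called), at least 1 line differed from each of the other 3 in the same direction. Over all 18417 genes tested, called or not, H2009 stood apart in this way in 2561, H441 in 3987, A549 in 2842 and H460 in 1460. A line set apart moves the mean of its class, so 76.9% describes the called genes only. The 3 largest negative class differences among called genes that were not separated were CEACAM6, an adhesion molecule, NTS, the peptide neurotensin, and UPK1B, a uroplakin. In A549 they were at 11.73, 11.03 and 10.90, while in each of the other 3 lines they were between 2.75 and 3.61. The 3 largest positive ones were MAL2, a membrane trafficking protein, IL13RA2, a decoy receptor of interleukin-13, and ZNF667-AS1. IL13RA2 was at 9.84 in H2009, 10.96 in H441 and 10.92 in H460 and at 3.27 in A549 alone, and ZNF667-AS1 was at 9.22 in H2009 and at 2.98 to 3.24 in the other lines.

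Lines of the same class also differed from each other in many genes. H2009 and H441 differed in 9098 genes (49.4%), more than any pair across the classes, and A549 and H460 in 7219 (39.2%). Across classes the pairs differed in 6587 genes (H2009 and H460) to 8911 genes (H441 and A549). Of the sum of squares between the 4 line means, 29% lay between the classes, 37.1% between H2009 and H441, and 33.9% between A549 and H460.
The test measures the spread between cultures of these lines. With the line as the unit the exact two-sided permutation test over 2 lines against 2 cannot give a p below 0.333. Limma on the 4 line means called 0 genes (619, or 3.36%, at an unadjusted p under 0.05), and limma with the line as a random block called 24, so the calls do not extend to K-ras dependent lines in general. Without the H441 arrays, 2033 genes were higher and 1639 lower in H2009 than in both A549 and H460.

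**Figure D2:**
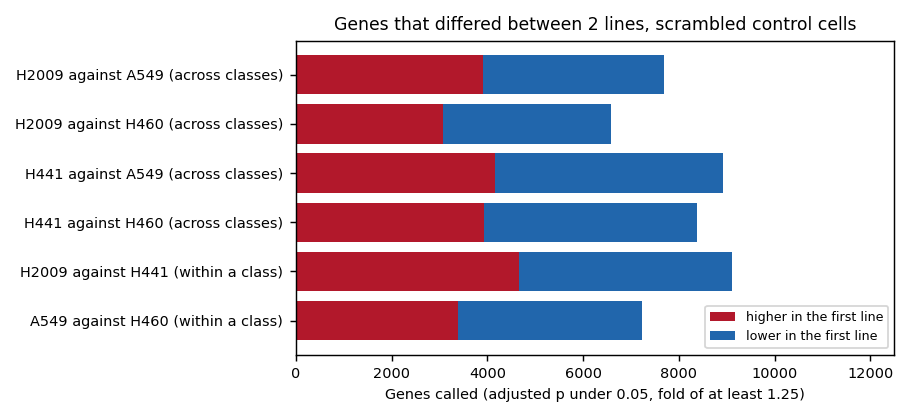
Number of genes called between 2 lines (horizontal axis) for the 4 pairs across the K-ras classes and the 2 pairs within a class; red genes are higher and blue genes lower in the first line named. The pair H2009 and H441, within the dependent class, has the longest bar with 9098 genes.

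Genes of one epithelial list were higher in the class mean, and H2009 carried most of that difference. The list, of 14 genes tied to epithelial identity and K-ras dependency, had 13 members called higher and 1 called lower, where 15.1% and 18.7% of all genes were, with a median class difference of 1.13 on the log2 scale against 0.01 over all genes. Only SPINT1, EPCAM and GRHL2 were separated. EPCAM, an epithelial adhesion molecule, was at 11.33, 11.10 and 11.16 in H2009 and 6.10, 5.94 and 5.63 in H441, against 4.53, 4.86 and 4.74 in A549 and 5.19, 5.57 and 5.59 in H460. The line mean of H441 lay 0.44 above that of H460, with single arrays of these 2 lines nearly touching, and far under that of H2009. SPINT1, an inhibitor of membrane serine proteases, had means of 7.85 in H2009 and 6.02 in H441 against 5.29 in A549 and 5.10 in H460.
CDH1, which encodes E-cadherin, was at 11.23 in H2009 and 8.73 in A549 but at 6.41 in H441 and 5.60 in H460. The same pairing of H2009 with A549 was seen in SPINT2 (9.90 and 8.69, against 5.57 in H441 and 4.95 in H460) and in the integrin subunit ITGB6 (7.12 and 6.07, against 3.81 and 3.56). RAB25, a Rab GTPase of epithelial recycling, ST14, the protease matriptase, and the splicing factor ESRP2 were at 7.44, 7.97 and 6.79 in H2009 and no higher than 4.66 in any other line. SYK, a kinase reported as needed by K-ras dependent cells, was at 5.76 in H2009 and at 4.66, 4.54 and 4.30 in H441, A549 and H460. ELF3, an epithelial transcription factor, was highest in A549 (9.24) and was the member called lower. Without the H441 arrays 13 of the 14 genes were higher in H2009 than in both independent lines, and the median was 2.53; without the H2009 arrays 3 were higher in H441, and the median was 0.21. Under quantile normalization or cyclic loess the number separated was 2. Keratins did not follow this list. Of 12 keratins only KRT19 was called higher and 2 were called lower, KRT80 and KRT20, the latter at 8.28 in A549 and at 3.86 to 4.0 elsewhere, and the median class difference was -0.11.

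ZEB1, which represses CDH1 and other epithelial genes, was lower in both dependent lines, at 6.63 in H2009 and 6.43 in H441 against 7.46 in A549 and 7.62 in H460 (difference -1.01), and COL6A1, a collagen VI chain, was higher. They were the only separated genes of 31 mesenchymal genes, of which 6 were called higher and 2 lower. Of 26 genes of tight junctions and desmosomes 12 were called higher and 4 lower (15.1% and 18.7% of all genes were). CDH3, P-cadherin, was at 9.70 in H2009 and 4.77 in H441 against 4.06 in A549 and 4.08 in H460, and MARVELD3, a tight junction protein, was at 5.68, 5.12, 4.39 and 4.38 in the same order. CLDN1, claudin-1, was separated the other way, with 8.68 in H2009 and 9.59 in H441 against 11.36 in A549 and 9.96 in H460. MUC1, a membrane mucin, was higher and FOXA1, an endoderm transcription factor, was lower in both dependent lines, with class differences of 0.99 and -1.25.

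Interferon-stimulated genes were higher in the dependent lines more often than lower. Type I interferon signals through a complex of STAT and IRF9 proteins that binds the interferon-stimulated response element (ISRE), and its targets detect viral RNA or block viral replication. Of 43 measured members, 21 were called higher and 4 lower (15.1% and 18.7% of all genes were), the line means overlapped in 14 of these 25, and 7 were separated and higher (2.09% of all genes were), namely IFI44, IFIT1, DDX60, OASL, STING1, HERC5 and IFIT2. The core of the ISRE, GAAANNGAAA on either strand, was searched in RefSeq promoters (GRCh38.p14, 250 bases before to 50 after the start of the gene). It was present in 3.04% of the 14239 promoters found for genes tested, in 22 of the 34 found for the whole list, and in all 4 found for the 7 separated genes. These are given with the match in capitals, each in the direction of its gene, because they belong to members that were higher together. A match is a string of letters and not evidence that a factor binds there.
IFI44: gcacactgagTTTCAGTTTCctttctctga
IFIT1, first match: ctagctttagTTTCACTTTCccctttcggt
IFIT1, second match: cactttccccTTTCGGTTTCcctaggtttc
DDX60, first match: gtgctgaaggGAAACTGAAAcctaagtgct
DDX60, second match: gaggagaaagGAAACCGAAActcccgccgg
HERC5: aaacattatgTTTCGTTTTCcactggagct
The windows lie at chr1:78649761-78649790 on the plus strand for IFI44, at chr10:89392497-89392526 and chr10:89392510-89392539 on the plus strand for IFIT1, at chr4:168318821-168318850 and chr4:168318786-168318815 on the minus strand for DDX60, and at chr4:88457035-88457064 on the plus strand for HERC5. All lie around or before the start of the annotated gene. The match began at position -18 from the start in IFI44, -116 and -103 in IFIT1, -88 and -53 in DDX60, and -74 in HERC5, whose promoter also held a pair of overlapping matches further upstream.

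IFI44, an interferon-induced protein, was at 7.88, 7.71 and 7.84 in H2009 and 6.99, 7.29 and 7.19 in H441, against 3.73, 3.36 and 3.56 in A549 and 5.97, 6.22 and 6.06 in H460. IFIT1, which binds viral RNA without a complete cap, was at 7.49, 7.41 and 7.10 in H2009 and 5.75, 6.13 and 5.89 in H441, against 4.37, 4.22 and 4.78 in A549 and 4.67, 5.17 and 5.06 in H460. A549 was lowest and H2009 highest in both genes. DDX60, a helicase that aids RNA sensing, had the same order (7.04 in H2009 and 5.79 in H441 against 4.21 in A549 and 4.86 in H460). OASL, related to the oligoadenylate synthetases, was highest in H441, with means of 6.63 in H2009 and 6.87 in H441 against 4.95 in A549 and 5.71 in H460. The class differences of these 4 genes were 2.67 (standard error 0.078) in IFI44, 1.92 (0.117) in IFIT1, 1.88 (0.084) in DDX60 and 1.43 (0.061) in OASL, with a largest adjusted p of 1.21e-08 from limma. BST2, the tether of enveloped viruses, was called but not separated, since H460 (7.89) lay next to H441 (8.03) and A549 stood apart at 4.13.
OAS1, an oligoadenylate synthetase that activates RNase L, went the other way. It was at 6.27, 6.30 and 6.18 in H2009 and 8.07, 8.18 and 7.82 in H441, against 10.22, 9.85 and 9.98 in A549 and 8.45, 8.38 and 8.42 in H460. No other member was separated and lower. Under quantile normalization 8 members were separated and higher and under cyclic loess 7, and no member was then separated and lower. The median over the list was 6.25 in H2009 and 5.79 in H441 against 4.82 in A549 and 5.62 in H460, so that A549 stood apart and H460 lay next to H441. Without the H441 arrays 15 members were higher and 5 lower, and without the H2009 arrays 15 were higher and 3 lower. Of 17 antigen presentation genes, 8 were called higher and 3 lower (15.1% and 18.7% of all genes were), and none was separated.

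**Figure D3:**
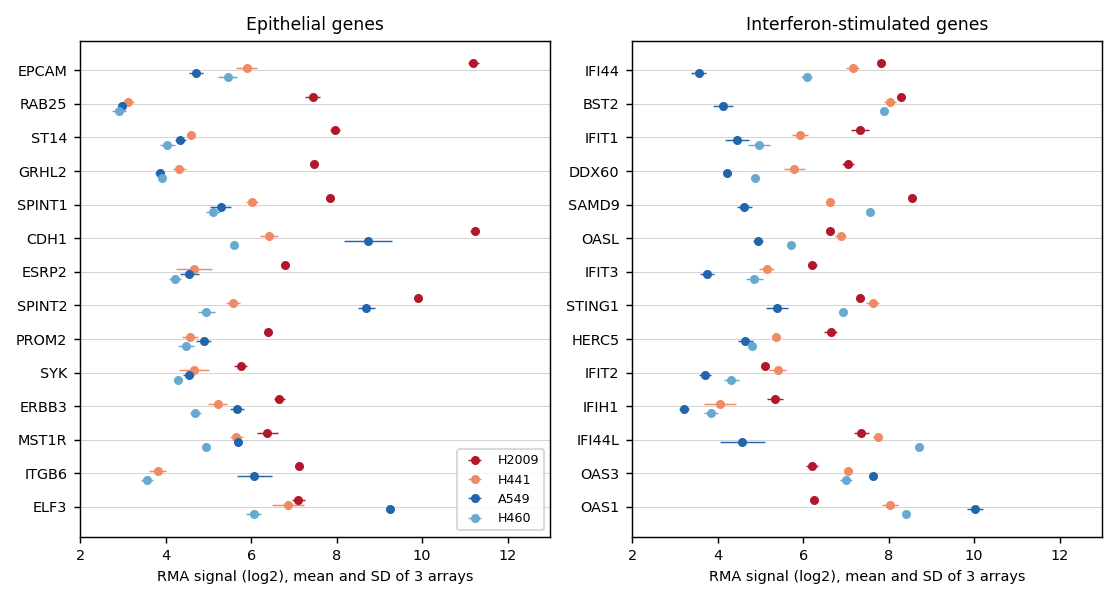
Mean RMA signal (log2, horizontal axis) and SD of 3 δscr arrays in each of the 4 lines for 14 epithelial genes (left) and 14 interferon-stimulated genes (right). Among the epithelial genes H2009 (dark red) stands alone at the right for EPCAM, RAB25 and ST14; among the interferon-stimulated genes A549 (dark blue) lies at the left in most rows and at the right in OAS1.

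Among 33 cytokine and chemokine genes, 12 were called higher and 8 lower, with a median class difference of 0.01. IL6, IL1A and IL1B were separated and higher, and IL18 was separated and lower. IL1A and IL1B encode the agonists of the interleukin-1 receptor. IL1A had means of 7.95 in H2009 and 8.79 in H441 against 3.67 in A549 and 7.01 in H460, and IL1B had means of 6.73, 9.0, 4.38 and 5.62. IL18, a related cytokine, was at 7.39, 8.19, 9.51 and 8.72. The 38 matrix metalloproteinases and serine proteases included 17 called higher and 6 lower (15.1% and 18.7% of all genes were). MMP1 was the only separated one, at 3.49 and 3.53 against 3.07 and 3.11, all under the olfactory receptor scale.

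The genes that act with or after K-ras were called in both directions. Of 39 Ras genes and regulators, 5 were called higher and 9 lower (15.1% and 18.7% of all genes were). MAP2K1, which encodes the ERK kinase MEK1, was higher and KSR1, a scaffold that holds RAF, MEK and ERK together, was lower in both dependent lines. MAP2K1 was at 9.41, 9.47 and 9.39 in H2009 and 9.64, 9.57 and 9.41 in H441, against 8.51, 8.47 and 8.56 in A549 and 8.73, 8.74 and 8.81 in H460. KSR1 was at 5.94, 5.95 and 5.96 in H2009 and 5.46, 5.28 and 5.06 in H441, against 6.76, 6.79 and 6.89 in A549 and 6.89, 7.02 and 7.09 in H460. The arrays of the classes overlapped in neither gene, and the class differences were 0.85 (standard error 0.056) and -1.30 (0.070). RALGPS2, an exchange factor for RAL, was higher (difference 1.01), and RASGRP1, an exchange factor for Ras, was lower (-0.93) from means of 4.24 and 3.94 in the independent lines that lie near the olfactory receptor scale.

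Of 23 genes that report or restrain ERK activity, 5 were called higher and 7 lower (15.1% and 18.7% of all genes were). DUSP6, the phosphatase that ERK induces and that inactivates ERK, was at 7.65 in H2009, 8.06 in H441 and 7.24 in A549, but at 5.10 in H460. It was separated (difference 1.68), although A549 lay closer to the dependent lines than to H460. CCND1, cyclin D1, was separated the other way, with means of 8.92, 8.99, 9.82 and 9.41. ITGA2, the integrin subunit that binds collagen with β1, was at 9.03 in H2009 and 8.50 in H441 and at 7.46 in each independent line, and was the only separated gene of 25 integrins (7 called higher, 1 lower). TGFA, a ligand of the EGF receptor, was higher in the dependent lines (7.03 and 7.54 against 6.27 and 6.13). Of the other receptor tyrosine kinases and ligands, IGF1R was lower (8.13 and 8.15 against 9.45 and 9.34), as was FGFR1 (5.0 and 5.72 against 8.70 and 6.52), while the ephrin EFNB2 was higher.

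PRKCD and the integrin αVβ3 genes, on which the study turns, were not separated at baseline. PRKCD, which encodes PKCδ, was at 8.20, 8.21 and 8.11 in H2009 and 8.11, 7.71 and 7.76 in H441, against 6.70, 7.03 and 7.19 in A549 and 8.27, 8.34 and 8.35 in H460. H460 had the highest values and A549 the lowest, and the class difference of 0.37 (standard error 0.089, adjusted p = 0.00305 from limma) was -0.31 without the A549 arrays. ITGAV was at 9.17, 9.26 and 9.06 in H2009 and 8.58, 8.55 and 8.48 in H441, against 9.41, 9.33 and 9.36 in A549 and 7.80, 7.86 and 8.08 in H460. Here too the independent lines held the highest and the lowest values, and the difference of 0.21 was under the fold required. ITGB3 was at 5.61, 5.74 and 5.69 in H2009 and 5.99, 6.18 and 5.69 in H441, against 4.83, 5.17 and 5.18 in A549 and 5.35, 5.48 and 5.45 in H460. All 6 arrays of the dependent lines lay above all 6 of the independent lines (difference 0.57, standard error 0.087, adjusted p = 7.55e-05 from limma), with a gap of 0.25 between the line means of H2009 and H460, a pair that did not pass the test. Of 13 protein kinase C and related kinase genes 4 were called higher and 2 lower (15.1% and 18.7% of all genes were), and none was separated.

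NRF2 targets were lower in the class mean, and H2009 carried most of that difference. NRF2 induces genes of glutathione and NADPH metabolism and of drug export. Of 41 targets 23 were called lower and 4 higher, where 18.7% and 15.1% of all genes were. The median class difference was -0.39 (-0.20 under cyclic loess), against 0.01 over all genes, and the line means overlapped in 16 of the 27 called. The median over the targets was 8.92 in H2009 and 10.33 in H441 against 10.13 in A549 and 10.34 in H460. AKR1B10, an aldo-keto reductase, was at 5.95 in H2009 and at 10.52, 11.72 and 9.86 in H441, A549 and H460, and ALDH3A1, an aldehyde dehydrogenase, was at 8.35 in H2009 and at 11.53, 11.21 and 10.84. Without the H441 arrays 26 targets were lower and none higher in H2009; without the H2009 arrays 4 were lower and 7 higher in H441. SLC47A1, ABCC2, GPX2 and UGDH were separated, and under each of the other scalings 3 targets were. ABCC2, an exporter of conjugated drugs, had means of 9.14, 10.07, 10.82 and 10.88. GPX2, a glutathione peroxidase, was at 4.10, 3.97 and 4.0 in H2009 and 3.91, 4.13 and 3.96 in H441, against 11.75, 11.76 and 11.84 in A549 and 4.74, 4.62 and 4.96 in H460. Its class difference of -4.26 was thus almost all A549, with H460 at a level near the olfactory receptor scale.

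Genes of the CREB and CRTC pathway were called lower more often than higher. CRTC coactivators are held in the cytoplasm by the kinases SIK, which LKB1 activates, and turn on CREB targets when released. Of 23 genes of this list 13 were called lower and 2 higher, where 18.7% and 15.1% of all genes were. The median class difference was -0.67, against 0.01 over all genes. Of the list 5 were separated, all lower, where 3.26% of all genes were separated and lower. CRTC3, one of the coactivators, was at 7.26, 7.32 and 7.17 in H2009 and 5.99, 6.00 and 6.08 in H441, against 8.17, 8.04 and 8.07 in A549 and 8.47, 8.43 and 8.49 in H460. SIK3, which restrains CRTC, had means of 6.26, 5.53, 7.07 and 7.10, and PDE4D, a phosphodiesterase that breaks down cyclic AMP, 5.83, 6.60, 7.73 and 7.30. PPARGC1A, the coactivator PGC-1α, was at 3.90 and 4.51 in H2009 and H441 and at 5.44 and 6.51 in A549 and H460. NR4A3, a nuclear receptor, was the fifth. INSL4, an insulin-like peptide, and NR4A2 were called lower but were high in A549 alone (7.92 and 7.01). STK11 itself was at 8.04 in H441 and at 6.43 to 6.74 in the other lines. The number separated was 5 or 6 under the other scalings, 12 without the H441 arrays and, without the H2009 arrays, 6 lower and 2 higher.

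**Figure D4:**
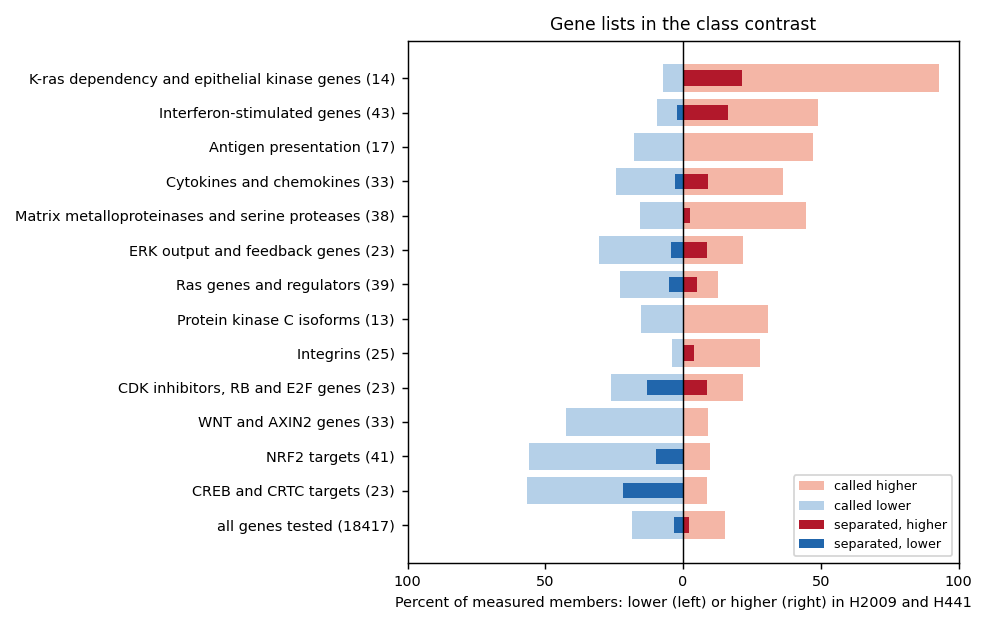
Percent of the measured members of 13 gene lists, and of all genes tested, that were called (pale bars) and separated (dark bars), to the right where higher and to the left where lower in H2009 and H441; the number of members is in brackets. The epithelial list reaches furthest right in called genes with 13 of 14, while CREB and CRTC genes have the longest dark bar to the left with 5 of 23.

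Among 23 CDK inhibitor, RB and E2F genes 5 were called higher and 6 lower (15.1% and 18.7% of all genes were). CDKN2A and CDKN2B were separated and higher and RB1, CCND1 and CCND3 were separated and lower. CDKN2A, which encodes p16 and ARF, was at 8.51, 8.51 and 8.81 in H2009 and 5.14, 4.96 and 4.67 in H441, against 4.26, 4.57 and 4.05 in A549 and 4.25, 4.07 and 4.14 in H460. H2009 alone had a high level, and H441 lay slightly above the independent lines, which were near the olfactory receptor scale. CDKN2B, its neighbour, was at 5.38 and 5.41 against 4.95 and 4.67. Single arrays of CDKN2B overlapped between the classes, with an A549 array at 5.25 and an H2009 array at 5.21. RB1, which holds E2F factors inactive, had means of 8.19 and 8.22 against 8.85 and 9.08, and CCND3, cyclin D3, 8.99 and 9.27 against 9.77 and 10.51. Of 40 cell division genes 5 were called higher and 11 lower, with the mitotic cyclin CCNB1 and the kinetochore gene NUF2 separated and higher (0.68 and 0.82) and the transcription factor MYBL2 separated and lower (-0.78).

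Of 26 genes of amino acid transport, synthesis and the urea cycle 6 were called higher and 11 lower, and genes were separated in both directions. SLC7A5 and SLC1A5, the main transporters of leucine and glutamine, were lower in the dependent lines (9.80 and 10.19 against 10.92 and 10.78 for SLC7A5, and 9.01 and 9.29 against 9.93 in each independent line for SLC1A5). PSAT1, an enzyme of serine synthesis, and ASL, an enzyme of the urea cycle, were higher (differences 0.71 and 0.66). Of 22 glycolysis genes 7 were called higher and 3 lower, and ALDOC, an aldolase, and FBP1, a gluconeogenic phosphatase, were separated and higher (1.86 and 1.94), FBP1 from 6.87 in H2009 and no more than 3.76 in any other line. Of 33 WNT genes 14 were called lower and 3 higher (18.7% and 15.1% of all genes were), but none was separated. Of 30 hepatic and gut-type genes 10 were called lower and 2 higher, and the only separated one was SERPINA1, the inhibitor of neutrophil elastase (9.47 in H2009 and 4.29 to 5.31 in the other lines).

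The lists of this paragraph held few separated genes. For comparison, 15.1% of all genes were called higher and 18.7% lower, and 2.09% were separated and higher and 3.26% separated and lower. Of 32 basement membrane and matrix genes 10 were called higher and 6 lower, with the laminin chain LAMB3 separated and higher (1.65) and the matrix protein FBLN1 separated and lower (-1.48). Of 25 genes of aldehyde and steroid detoxification 4 were called higher and 11 lower, and ALDH1B1, a mitochondrial aldehyde dehydrogenase, and MGST1, a membrane glutathione transferase, were separated and lower (-0.84 and -0.90). Of 36 other receptor tyrosine kinases and ligands 9 were called higher and 10 lower, of 16 genes of the EGFR family 4 and 3, of 20 mucins and trefoil factors 3 and 6, of 22 genes of the BCL2 family 4 and 4, of 17 neuroendocrine genes 1 and 5, of 11 HOXA and HOXB genes 0 and 3, and of 9 regulators of NRF2 0 and 2. HOXB8, a homeobox factor, and NFE2L1, a relative of NRF2, were separated and lower (-0.81 and -0.44).

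The same 4 lines with the PKCδ shRNA were compared in the same way. There, 299 genes were separated and higher and 491 separated and lower in H2009 and H441. Of the 985 genes separated in δscr cells, 472 (47.9%) were separated in the same direction with the PKCδ shRNA, which is 59.7% of the 790 genes separated there. None was separated in the opposite direction, and 4 had a class difference of opposite sign. KRT19, CDK14, FAM3C, PTX3, ABCA1, MPV17L, ID2, EDA2R, IFI44, IFIT1, DDX60, MAP2K1, KSR1, CRTC3 and CCND1 were among the genes separated in both sets. Of the 24 genes with the widest gap 15 were separated in both sets and 9 were not, namely TXNIP, TMEM45B, ANKRD22, ANTXR2, IL6, EMP1, GABRA5, TMEM47 and RNU5A-1. TXNIP and GABRA5, among the widest gaps in their directions, had class differences of 2.99 and -2.20 there. EPCAM, SPINT1, GRHL2 and CDKN2A were also separated in δscr cells only, with class differences of 2.92, 1.52, 1.64 and 2.06 in the knock-down arrays. ITGA2 had a difference of 1.31 in δscr cells and 0.45 with the PKCδ shRNA. These are the same 4 lines, so this set holds no further evidence on other lines of a class.

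**Figure D5:**
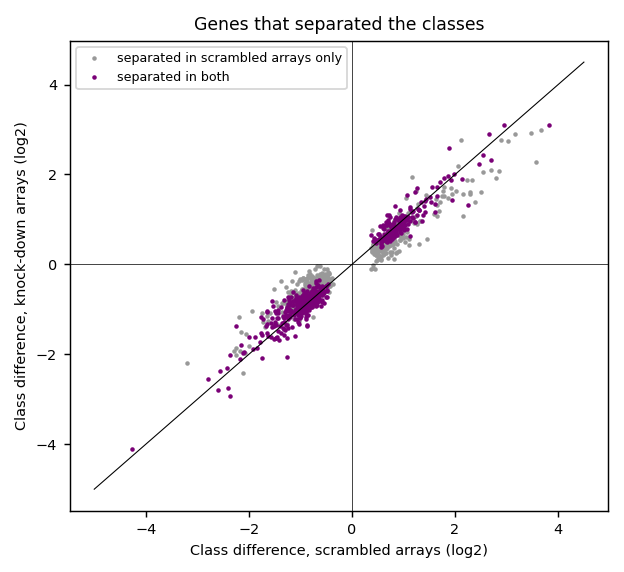
Class difference (H2009 and H441 minus A549 and H460, log2) of the genes separated in δscr arrays, horizontal axis, against the same difference in the PKCδ knock-down arrays, vertical axis; the diagonal marks equal values. Purple points are the 472 genes separated in both sets, and grey points those separated in δscr arrays only; nearly all points lie in the quadrants of equal sign.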

How the data were processed

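Total RNA from 3 biological replicates of each δscr line was hybridized to Affymetrix Human Gene 1.0 ST arrays. The authors normalized the scans by RMA in Affymetrix Power Tools and deposited log2 values per transcript cluster. RMA quantile-normalizes probes across arrays, so a shift of all genes would largely be removed; the medians of the 12 arrays lay between 4.78 and 4.90. The versions behind these values and the genome build were not found in the sources used here. Of 33252 clusters, 19460 had 1 gene symbol in the array annotation, 1754 several and 12038 none. Where a symbol had several clusters (769 genes), the brightest by its mean over all 24 arrays stood for it, which left 18417 genes. The 12 arrays were fitted in limma 3.58.1 (R 4.3.3) with 1 coefficient per line, and the script was tested on simulated data. The number of arrays limits the precision. No batch is given in the labels.

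The members and lists were chosen with earlier results of these data known. The 33 lists were written from memory, and 845 of 945 genes listed were measured. The rule for named genes took the 12 separated genes with the largest gap in each direction, up to 4 separated members per list, PRKCD, ITGAV, ITGB3 and the epithelial list, and the 3 largest called but not separated in each direction. Some genes are left out of the text, and the list of p53 targets is given only here. Of its 43 measured members 8 were called higher and 13 lower, where 15.1% and 18.7% of all genes were. In it 2 were separated and higher and 3 separated and lower (2.09% and 3.26% of all genes were). GADD45A and CD82 were the higher ones (class differences 1.05 and 0.74). EDA2R and AEN were among the lower ones (-2.12 and -0.79). Other genes named, such as AKR1B10, ALDH3A1, BST2, OAS1, STING1, HERC5, IFIT2, STK11, INSL4, NR4A2, NR4A3, the keratins and lung markers, were chosen after their values were seen.

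Alternatives were other folds, scalings, gene filters and spreads, array weights, all 24 arrays in 1 fit, averaging the clusters of a gene, a block for the replicate number, each array or line left out, the line as the unit, and the methods' t-test.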

Additional observations from a re-analysis of the deposited data

Results flagged for a closer look

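Class differences that themselves differed between the δscr and the PKCδ knock-down arrays were looked for among the 24 genes with the widest gap, PRKCD, ITGAV and ITGB3, with limma on all 24 arrays and Benjamini-Hochberg adjustment over all genes. The difference between the 2 sets, δscr minus knock-down on the log2 scale, passed an adjusted p of 0.05 in 14 genes. Among genes higher in H2009 and H441 it was 1.0 in TMEM45B, 0.93 in ABCA1, 0.90 in ANTXR2, 0.73 in KRT19, 0.50 in CDK14 and 0.39 in FAM3C. Among genes lower in these lines it was -1.02 in TMEM47, -1.01 in RNU5A-1, -1.01 in GABRA5, -0.74 in SLC47A1, -0.61 in RFLNB and -0.50 in MRM1. In these 12 genes the classes lay closer together with the PKCδ shRNA. In ID2 the value was 0.56, and the classes lay further apart with the PKCδ shRNA (-2.93 against -2.38). In ITGAV it was 0.36, from a class difference of 0.21 in δscr cells to -0.15. In PRKCD, which the shRNA targets, it was 0.68 with an adjusted p of 0.0516 from limma. The 24 genes were chosen for their gap in the δscr arrays, so their values there are the high end of their range and a smaller value in other arrays is no finding in itself. The groups have 3 arrays each, and single arrays were not tested as outliers.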

How the results depend on the processing

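With a fold of at least 2, 436 genes were called higher and 451 lower in H2009 and H441, and 18 and 34 were separated. With no fold threshold 4321 were called higher, and 1792 where genes under the median level were left out. Separated genes, higher and lower, numbered 2284 and 2787 without the H2009 arrays, 2033 and 1639 without H441, 881 and 1768 without A549, and 1781 and 2128 without H460, where fewer pairs had to pass. With the line as a random block 12 genes were called higher and 12 lower, and with line means 0 and 0. The methods' t-test called 1670 and 2206 at its unadjusted threshold, and 709 and 1169 after Benjamini-Hochberg adjustment. Leaving out single arrays gave 2766 to 2837 called higher, 3397 to 3468 called lower, 356 to 394 separated and higher, and 558 to 621 separated and lower. The share of called genes that were higher was 44.8% and became 46.1% with equal array medians, 49.2% after quantile normalization and 52.3% after cyclic loess, so which direction held more calls depended on the scaling; the median over all genes stayed between -0.01 and 0.02.

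The replicate numbers did not pair the samples (correlation of deviations from -0.205 to 0.122 between same-numbered arrays), and with the replicate block 2781 genes were called higher, 3439 lower, 383 separated and higher and 602 separated and lower. Of 104 named genes, 88 lost their call with the line as a random block and 103 with line means. The sign reversed without H2009 in ITGAV (-0.10), ITGB6 (-1.0), CDH1 (-0.76), PROM2 (-0.11), SPINT2 (-1.25) and ZNF667-AS1 (-0.056). It reversed without A549 in PRKCD (-0.31), ELF3 (0.92), IL13RA2 (-0.52), CEACAM6 (0.035), NTS (0.33) and UPK1B (0.0037), and without H460 in ITGAV (-0.51), ITGB6 (-0.60) and SPINT2 (-0.96). In the knock-down arrays it reversed in PRKCD (-0.31) and ITGAV (-0.15). ITGAV was called under cyclic loess (0.32), without H441 (0.53), without A549 (0.94) and with no fold threshold (0.21). The genes that reversed differ within a class by more than between the classes.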

Other observations

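Genes of small nucleolar RNAs, a group chosen after its values were seen, were mostly lower in the class mean of H2009 and H441. These RNAs guide the modification of ribosomal and spliceosomal RNA. Of 176 such genes tested, 2 were called higher and 95 lower, where 15.1% and 18.7% of all genes were. Among them 24 were separated and lower and 0 separated and higher, where 3.26% and 2.09% of all genes were. The median class difference was -0.37 on the log2 scale, against 0.01 over all genes. The median of their line means was 4.5 in H2009 and 4.12 in H441 against 4.47 in A549 and 5.09 in H460, so that A549 lay next to H2009 and H460 stood above the other 3 lines. In the PKCδ knock-down arrays the median class difference was -0.29, and 22 were separated and lower, as were 491 of all 18417 genes.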
